A study of Mus musculus with 9 samples.

Results

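Otx2, Zic2, Zic5, Fgf5, Pou3f1, Sox3, Sox4 and Sox11 are 8 genes that mark or drive the formative and primed states, which follow the naive state when mouse embryonic stem cells leave ground-state pluripotency. The 8 genes were chosen by name, and all 8 were found by symbol among the 16636 genes of the count table. The cells were E14, an established mouse embryonic stem cell line, kept naive in 2i/LIF medium, which holds the MEK inhibitor PD0325901, the GSK3 inhibitor CHIR99021 and the cytokine LIF. Each of 3 groups has 3 libraries: untreated wild-type cells, cells transfected with a luciferase siRNA as control (siLuc) and cells transfected with siRNA to Stag3 (siStag3), a cohesin subunit best known from meiosis. Both siRNA groups received 50 pmol siRNA at seeding and again on the next day and were collected after 48 h. All 3 groups share the line, the medium and the fibronectin-coated plates, and the untreated cells received no transfection reagent as far as the labels say. RNA was read by mRNA sequencing. The labels number the 3 libraries of a group as replicates and do not say whether they came from separate cultures, so p-values measure only the spread between these libraries, which may be technical.

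In the naive state, MEK inhibition holds FGF-ERK signalling low, and formative genes such as Fgf5 rise when that block is lifted. OTX2 is a homeodomain factor that works with OCT4 (Pou5f1) to open formative enhancers, and Fgf5 encodes a secreted FGF ligand that is the classical marker of the post-implantation epiblast. Pou3f1 (also known as Oct6) is a POU-domain factor, Zic2 and Zic5 are zinc-finger factors that lie next to each other on one chromosome, and Sox3, Sox4 and Sox11 belong to the SOX family and are active in the epiblast and the early nervous system.

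Column names give each library a set, 1 or 3, and an experiment, and the labels explain neither. Each group has 2 libraries of Set 1 and 1 of Set 3. In Set 3 the siLuc library is of experiment 1, and the untreated and siStag3 libraries are of experiment 5. A Set 3 difference between siLuc and another group therefore cannot be told apart from one between experiments. The libraries held 29332436 to 44527534 counts. Levels are given as CPM, each count's share of its library scaled by TMM factors, and a floor of 3 counts, which covers counting error only, corresponds to 0.065 to 0.099 CPM. The first principal component held 41.1% of the variance and parted the 3 Set 3 libraries from the 6 of Set 1, so the set entered the main edgeR fit as a term. Stag3 was at 24.1 to 28.6 CPM in untreated cells, 22.5 to 26.6 in siLuc and 13.5 to 15.6 in siStag3. Pluripotency markers were high throughout: the summed level of Pou5f1, Sox2, Nanog, Zfp42 and Esrrb was 2990 to 3060 CPM in untreated cells, 2930 to 3050 in siLuc and 3080 to 3120 in siStag3. Primitive endoderm markers summed to 2.41 to 4.11 CPM and fibroblast markers to 1.54 to 2.78 CPM over all libraries.

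Otx2 and Zic5 carry the calls described below, and RefSeq sequence from before their start sites is shown for that reason. Entries were found for 5 of the 8 genes, and the 250 bases before the start are printed, on the minus strand of build GRCm38.p6. Capitals mark matches to any of 6 motifs searched on both strands, none of which holds another. The TCF/LEF motif was ATCAAAG, the OTX motif was TAATCC, the octamer was ATGCAAAT and the TATA box was TATAAA. The GC box was GGGCGG and the last motif was CCAAT.
Otx2, outermost of 4 starts, chr14:48667645-48667894: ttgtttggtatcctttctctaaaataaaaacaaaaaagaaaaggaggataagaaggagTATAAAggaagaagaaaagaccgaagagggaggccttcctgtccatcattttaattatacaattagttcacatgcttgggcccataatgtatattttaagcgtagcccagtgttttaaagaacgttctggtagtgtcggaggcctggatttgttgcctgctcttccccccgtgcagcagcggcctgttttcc
Zic5, chr14:122465659-122465908: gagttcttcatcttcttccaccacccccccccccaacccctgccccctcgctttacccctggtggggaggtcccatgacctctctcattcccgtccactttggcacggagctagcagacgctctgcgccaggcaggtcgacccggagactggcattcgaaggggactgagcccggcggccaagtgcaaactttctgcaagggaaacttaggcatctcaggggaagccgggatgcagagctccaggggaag
The Otx2 window held 1 match, TATAAA, which is found in 12.4% of 32851 mouse promoter windows of this length, and the Zic5 window held none of the 6. GC content was 42.0% for Otx2, with 6 CpG pairs, and 62.4% for Zic5, with 11. The median window had 52.4% and 6.

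The 8 genes differed widely in level. Zic2 and Zic5 were the most abundant, with means over the 9 libraries of 46.5 CPM and 45.7 CPM, followed by Otx2 at 19.8 CPM and Sox4 at 6.32 CPM. Sox11 (1.54 CPM), Sox3 (1.05 CPM), Pou3f1 (0.364 CPM) and Fgf5 (0.281 CPM) were the lowest. For scale, Pou5f1 was at 877 ± 37.8 CPM and Nanog at 657 ± 35.2 CPM in untreated cells (SD, n = 3). Divided by transcript length, the order of the levels was Zic2 (19 CPM per kb), Zic5 (9.59), Otx2 (7.64), Sox4 (1.32), Sox3 (0.508), Sox11 (0.186), Fgf5 (0.112) and Pou3f1 (0.0945), each as CPM per kb. On that scale the ranges over libraries overlapped for Zic5 with Otx2, for Sox11 with Fgf5 and for Fgf5 with Pou3f1, so these neighbours are not ordered beyond their spread. Zic2 stood above Zic5 in every library, at 16.5 to 22 against 7 to 11.7 CPM per kb.

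The lowest genes rest on few reads. Fgf5 had 3 to 15 counts per library and Pou3f1 8 to 17, for which counting error alone, taken as 1 over the square root of the mean count, is 32.5% and 28.3%. Sox3 had 22 to 49 counts and Sox11 33 to 74. The other 4 genes had at least 185 counts in every library. All 8 passed the filter on low counts. Fgf5 reached its cutoff of 0.295 CPM in 1 untreated, 2 siLuc and 2 siStag3 libraries and Pou3f1 in 1, 2 and 3. The other 6 genes reached it in all 9 libraries.

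**Figure D1:**
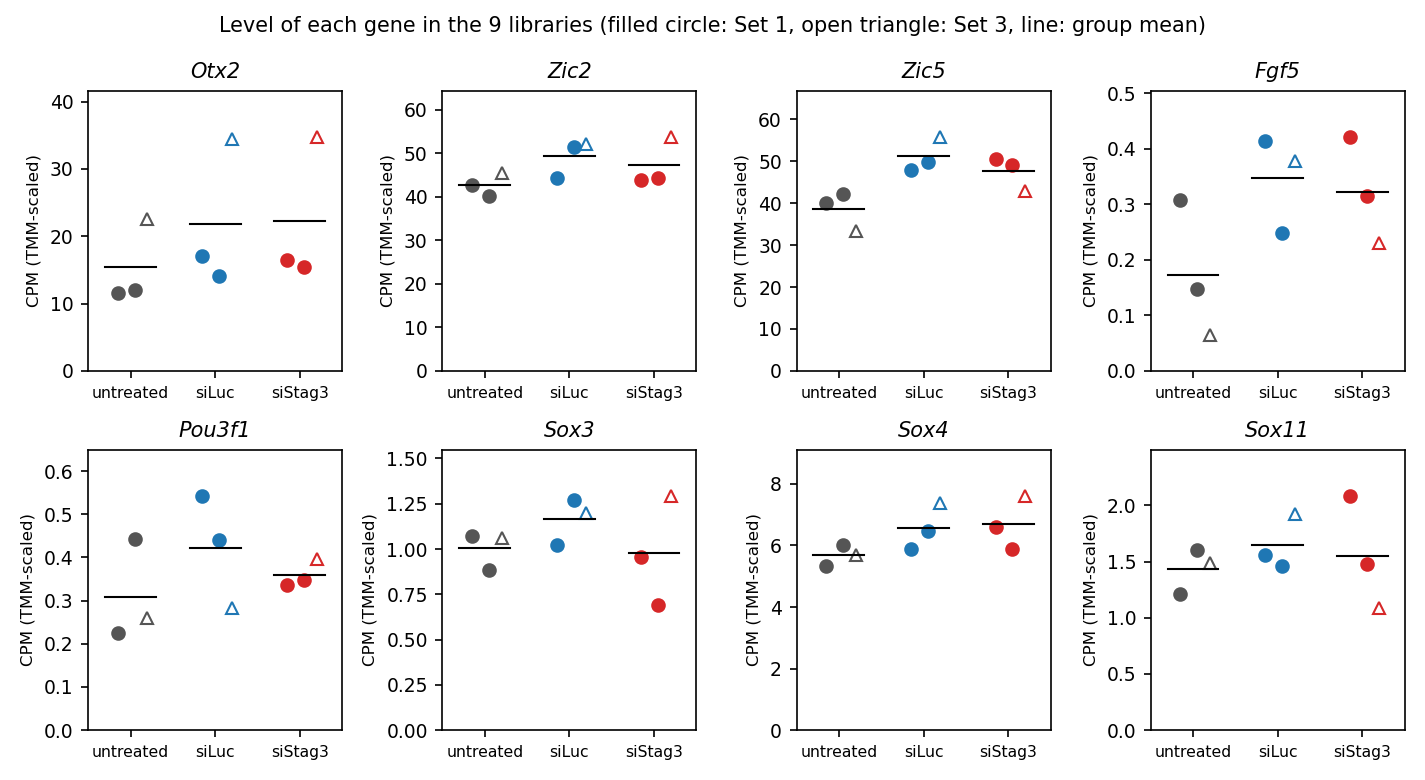
Level of each of the 8 genes in CPM (linear axis from 0) in the 9 libraries, by group; circles are Set 1, triangles Set 3, and the line is the group mean. Otx2 lies between 11.6 and 17 CPM in Set 1 and between 22.5 and 34.7 CPM in Set 3, while Fgf5 and Pou3f1 stay under 0.6 CPM in every library.

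Transfection with the control siRNA went with higher Otx2 and Zic5. Of the 8 genes, 2 passed the threshold of an adjusted p of 0.05 in siLuc against untreated cells, both higher, where 4.20% of the 14246 genes tested passed in either direction and 1.65% passed as higher. All 8 had a log2 fold change above 0, as did 49.6% of all genes. Their median was 0.32, and that of all genes -0.00. In siStag3 against untreated cells 1 of the 8 genes passed, Otx2, where 2.53% of all genes passed and 1.07% passed as higher. There 7 of 8 values were above 0, with a median of 0.23 (all genes: 48.6% above 0, median -0.01). The 2 comparisons share the untreated libraries and are not independent of each other. In bulk RNA, more cells with a transcript and more transcript per cell cannot be told apart.

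Otx2 (ENSMUSG00000021848) was at 11.6, 12 and 22.5 CPM in untreated cells, the last value being that of Set 3. In siLuc it was at 17 and 14.1 CPM in Set 1 and 34.5 CPM in Set 3, and in siStag3 at 16.5, 15.4 and 34.7 CPM in the same order. Within each set every siRNA library lay above every untreated one, which held in the upward direction for 8.84% of all genes. Across sets the groups overlapped, since the untreated Set 3 library exceeded the siRNA libraries of Set 1. With the set in the fit Otx2 was 1.4-fold higher in siLuc (log2 fold change 0.48, SE 0.0857, edgeR adjusted p 0.00982) and 1.42-fold higher in siStag3 (0.51, SE 0.0857, edgeR adjusted p 0.00638). The mean of both siRNA groups against untreated cells gave 0.50 (SE 0.0753, edgeR adjusted p 0.00233). In this averaged comparison 6.04% of all genes passed, 2.30% as higher, and again Otx2 and Zic5 were the members called.

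The Otx2 difference was seen in both sets. It was 0.40 for siLuc and 0.44 for siStag3 in Set 1, and 0.62 for each in Set 3, where each group has 1 library. In Set 3 the siLuc and untreated libraries also differ in experiment number. The test of a different effect in the 2 sets gave an edgeR adjusted p of 0.754 for siLuc and 0.706 for siStag3, where 0.0140% and 0.00702% of all genes passed. Without the set term the Otx2 calls ended (edgeR adjusted p 0.663, 0.93 and 0.65 for siLuc, siStag3 and their mean), with SEs of 0.421, 0.421 and 0.371 in place of 0.0857, 0.0857 and 0.0753. None of the 8 genes passed in that fit, which called 0.00702%, 0.0140% and 0.0702% of all genes. Leaving out the untreated Set 3 library also ended them (edgeR adjusted p 0.0941, 0.09 and 0.0605), with log2 fold changes of 0.41, 0.44 and 0.43. The siLuc call was further lost without the siLuc library of Set 1, experiment 1 (0.0591) or that of Set 3 (0.0713). The siStag3 call was lost without the siStag3 library of Set 1, experiment 1 (0.0551).

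Zic5 (ENSMUSG00000041703) was at 40, 42.1 and 33.4 CPM in untreated cells, with the lowest value in Set 3. It was at 47.8, 49.9 and 55.7 CPM in siLuc and at 50.4, 49.2 and 43 CPM in siStag3. All 6 siRNA libraries lay above all 3 untreated ones, a separation that 4.75% of all genes showed in either direction (19.9% for siLuc alone and 10.0% for siStag3 alone). The log2 fold change was 0.42 in siLuc (SE 0.0888, edgeR adjusted p 0.0231), 0.31 in siStag3 (SE 0.0889, edgeR adjusted p 0.0932) and 0.36 for their mean (SE 0.0778, edgeR adjusted p 0.0174).

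The low untreated library of Set 3 weighed on Zic5. The siLuc difference was 0.25 in Set 1 and 0.74 in Set 3, where the siLuc and untreated libraries also differ in experiment number. The test of this difference between the sets gave 0.49 (SE 0.11, unadjusted p 0.000922, edgeR adjusted p 0.494). Without that library the Zic5 log2 fold change was 0.32 in siLuc (edgeR adjusted p 0.141) and 0.27 for the mean of both groups (0.157). The siLuc call was also lost without the untreated library of Set 1, experiment 1 (0.0721) or the siLuc library of Set 3 (0.0893). The averaged call was lost without that untreated library (0.0697) or the siStag3 library of Set 1, experiment 1 (0.0612). Without the siStag3 library of Set 3 the siStag3 difference passed (0.36, edgeR adjusted p 0.0281). Without the set term neither Zic5 call held (edgeR adjusted p 0.579 for siLuc and 0.362 for the mean). Of the 31-base stretches in the Zic5 transcripts, 10.6% also occur in other genes, against at most 3.23% for the other 7 genes, and how such reads were assigned is not given in the sources used here.

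Zic2 (ENSMUSG00000061524), the neighbour of Zic5, was at 42.7, 40.3 and 45.5 CPM in untreated cells, 44.3, 51.5 and 52.2 CPM in siLuc and 43.8, 44.3 and 53.7 CPM in siStag3. Each siRNA library exceeded the untreated ones of its set, while the ranges of the groups overlapped. The log2 fold changes were 0.20 for siLuc (SE 0.0701, edgeR adjusted p 0.0934) and 0.14 for siStag3 (SE 0.0703, edgeR adjusted p 0.339). The Zic2 transcript is rich in GC, at 59.9% against a median of 50.0% for the genes tested. In its bin of GC content, genes deviated from their mean over all libraries by 0.11 in untreated cells and by -0.09 in siLuc (log2). After correction for GC content the Zic2 log2 fold change was 0.40 for siLuc (edgeR adjusted p 0.000133) and 0.25 for siStag3 (edgeR adjusted p 0.00972), and both passed. The same correction left Otx2 at 0.42 and 0.50 (edgeR adjusted p 0.00119 and 0.0002) and Zic5 at 0.40 and 0.30 (0.0221 and 0.0712), so that 3 of the 8 genes passed for siLuc (7.01% of all genes) and 2 for siStag3 (6.77%). For the mean of both groups the same 3 genes passed (9.64% of all genes).

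The ratio of Zic5 to Zic2 counts within a library, which a scaling factor per library cannot alter, was 0.937, 1.04 and 0.734 in untreated cells. It was 1.08, 0.969 and 1.07 in siLuc and 1.15, 1.11 and 0.801 in siStag3. The lowest values were those of the untreated and siStag3 libraries of Set 3, which are both of experiment 5, and the groups overlapped. The ratio is not free of the GC trend. Genes in the GC bin of Zic2 deviated by 0.18 in Set 3 and by -0.08 in Set 1 (log2). For the bin of Zic5, at 49.8% GC, these values were -0.01 and 0.01. The part of this trend in the ratio was not tested.

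None of the remaining 5 genes passed in any group comparison. Fgf5 (ENSMUSG00000029337) had 11, 5 and 3 counts in the untreated libraries, 13, 9 and 12 in siLuc and 15, 10 and 7 in siStag3. The fitted log2 difference was 1.03 for siLuc (SE 0.486, edgeR adjusted p 0.185) and 0.94 for siStag3 (SE 0.492, edgeR adjusted p 0.348), the largest point estimates among the 8 genes and the least precise. The group ranges of Fgf5 overlapped, and the 95% interval for siLuc ran from -0.02 to 2.07. Sox4 (ENSMUSG00000076431) was at 5.33, 6.03 and 5.68 CPM in untreated cells, 5.89, 6.48 and 7.37 CPM in siLuc and 6.6, 5.89 and 7.59 CPM in siStag3. Its log2 fold changes were 0.21 (SE 0.111, edgeR adjusted p 0.224) and 0.24 (SE 0.111, edgeR adjusted p 0.297). In RefSeq Sox4 overlaps 1 other gene, Gm46405, which is not listed in the count table. Whether counting used strand is not given in the sources used here.

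Sox3 (ENSMUSG00000045179) ranged from 0.886 to 1.07 CPM in untreated cells, 1.02 to 1.27 in siLuc and 0.693 to 1.29 in siStag3. Sox11 (ENSMUSG00000063632) ranged from 1.21 to 1.6, 1.46 to 1.92 and 1.09 to 2.08 CPM, and Pou3f1 (ENSMUSG00000090125) from 0.224 to 0.443, 0.283 to 0.541 and 0.337 to 0.396 CPM in the same order. The groups overlapped for all 3 genes. Log2 fold changes against untreated cells lay between -0.04 (Sox3, siStag3) and 0.45 (Pou3f1, siLuc), with edgeR adjusted p from 0.445 to 0.937. Sox3 and Pou3f1 have the highest transcript GC content of the 8 genes, 66.4% and 63.9%, and the GC correction took their siLuc log2 fold changes from 0.22 to 0.42 and from 0.45 to 0.63 (edgeR adjusted p 0.271 and 0.354).

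**Figure D2:**
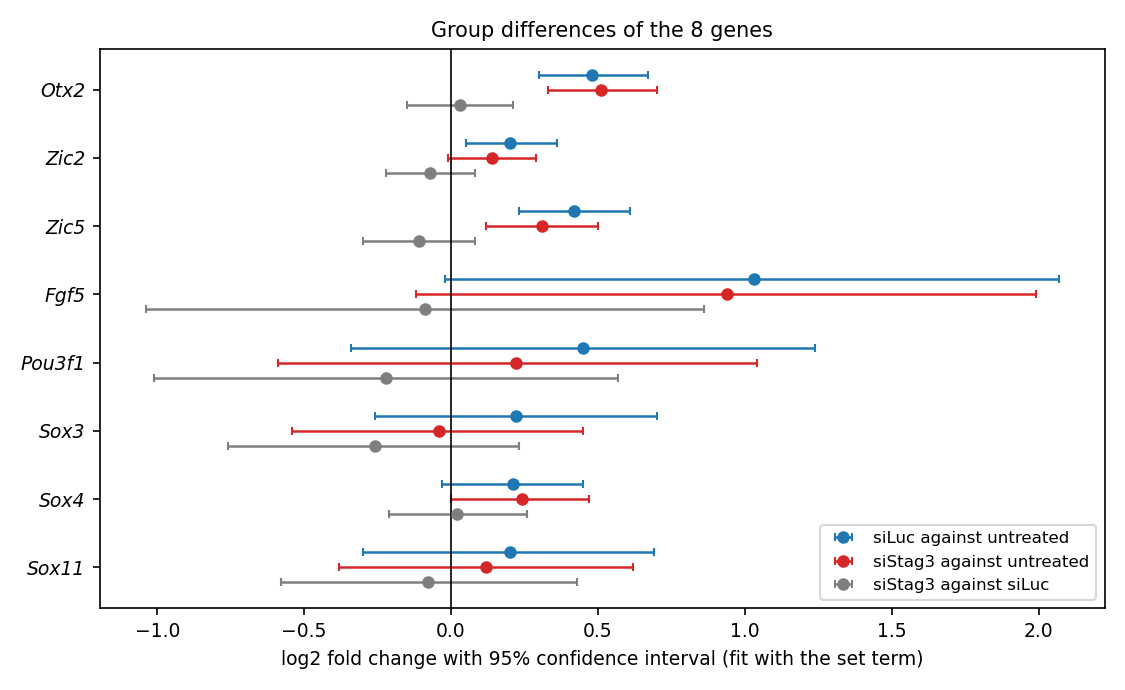
Log2 fold change of each of the 8 genes with its 95% confidence interval in the fit with the set term, for siLuc against untreated (blue), siStag3 against untreated (red) and siStag3 against siLuc (grey). The Otx2 intervals against untreated cells run from 0.30 to 0.67 and from 0.33 to 0.70, and every grey interval includes 0.

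Knockdown of Stag3 was set against the control siRNA to ask what changes beyond transfection. None of the 8 genes passed in siStag3 against siLuc, where 0.0281% of all genes passed in edgeR (0 without the set term, 0.428% with the GC correction), and none had an unadjusted p under 0.05, as 7.88% of all genes did. With the GC correction Zic2 had a log2 difference of -0.16 at an unadjusted p of 0.0127 (edgeR adjusted p 0.312). DESeq2 with the set term called none of the 6 members for which it gave an adjusted p, and gave none for Fgf5 and Pou3f1. The log2 fold change was above 0 for 2 of 8 genes, Otx2 and Sox4, against 48.3% of all genes, and the median was -0.08 against -0.00.

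For the 4 more abundant genes the 95% intervals were narrow. The difference was 0.03 for Otx2 (interval -0.15 to 0.21), -0.07 for Zic2 (-0.22 to 0.08), -0.11 for Zic5 (-0.30 to 0.08) and 0.02 for Sox4 (-0.21 to 0.26). A change of Otx2 by as much as its difference from untreated cells lies outside this interval, which rests on the set term: without it the SE of Otx2 was 0.419 in place of 0.0844. For the 4 scarce genes the intervals reached from -0.58 to 0.43 (Sox11), -0.76 to 0.23 (Sox3), -1.01 to 0.57 (Pou3f1) and -1.04 to 0.86 (Fgf5), so differences of up to those sizes are not excluded. In this comparison the set difference of Zic5 was -0.40 (0.03 in Set 1 and -0.37 in Set 3, unadjusted p 0.00372, edgeR adjusted p 0.0869) and that of Sox11 was -1.06 (0.21 and -0.79, unadjusted p 0.0321, edgeR adjusted p 0.186). Of all genes 1.12% passed this test of the sets. The siStag3 and siLuc libraries of Set 3 also differ in experiment number, which this test cannot tell apart from the set.

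Otx2 also differed between the sets. It was at 14.4 ± 2.3 CPM in the 6 libraries of Set 1 and 30.5 ± 6.99 CPM in the 3 of Set 3 (SD), with no overlap, as for 26.2% of all genes. It was 2.1-fold higher in Set 3 (log2 fold change 1.07, SE 0.0705, edgeR adjusted p 3.76e-07), and 1.17 after the GC correction. A rise of at least 1 past the threshold was found for 0.674% of all genes, although 42.7% of genes differed between the sets in either direction (21.4% higher, and 41.5% in all with the GC correction). In siLuc, where both sets hold a library of experiment 1, Otx2 was at 17 CPM in Set 1 and 34.5 CPM in Set 3.

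Of the other 7 genes only Zic2 passed between the sets. It was higher in Set 3 by 0.18 (SE 0.0603, edgeR adjusted p 0.0279), which became -0.08 after the GC correction (adjusted p 0.189). The remaining 6 did not pass, with log2 fold changes from -0.54 (Fgf5) to 0.26 (Sox3). Of the 10 tested genes of FGF receptors and ERK readout described below, 3 were called higher in Set 3 and 5 lower. Etv4 and Egr1, transcription factor genes that respond to ERK, were lower in Set 3, with log2 fold changes of -1.14 and -2.02 (edgeR adjusted p 5.1e-08 and 2.59e-08). Spred1, Dusp6 and Etv5 were also lower, with -0.76, -0.41 and -0.20 (edgeR adjusted p 0.000414, 0.00235 and 0.00417). The FGF receptor genes Fgfr2 and Fgfr1 were higher by 0.94 and 0.26 (edgeR adjusted p 3.23e-06 and 0.009), and the feedback gene Spry2 by 0.21 (0.00647). Their part in the Otx2 difference was not tested, and the labels do not say what distinguishes the sets.

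**Figure D3:**
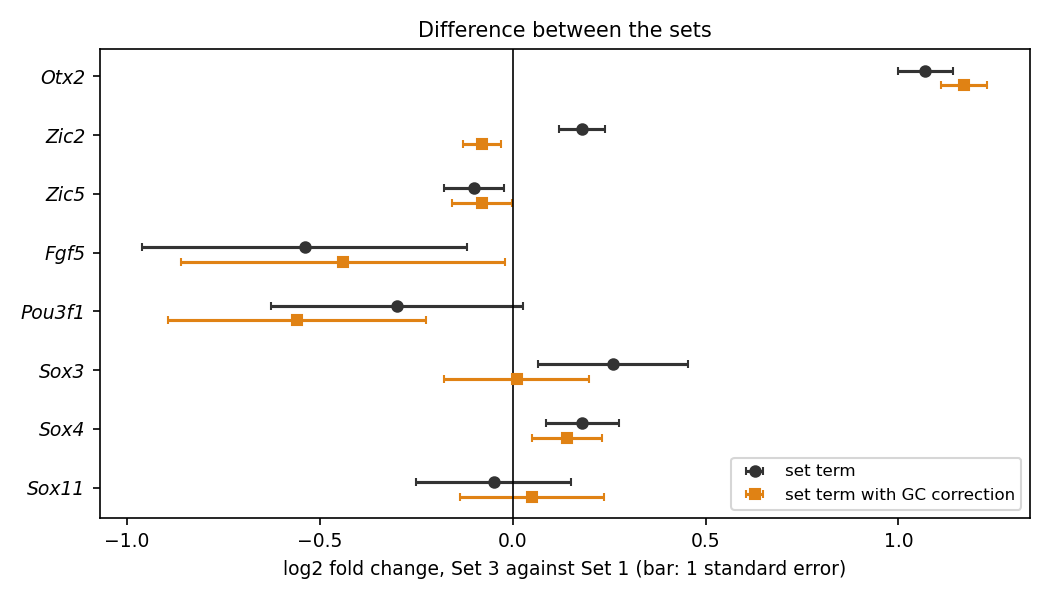
Log2 fold change of Set 3 against Set 1 for each of the 8 genes, with 1 standard error, without (black circles) and with (orange squares) the GC correction. Otx2 stands at 1.07 and 1.17, and Zic2 moves from 0.18 to -0.08 with the correction.

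Other genes of these families and of the FGF-ERK pathway were read from the same fit, comparing the mean of both siRNA groups with untreated cells (861 genes called, 328 higher and 533 lower). Of 16 family relatives of the 8 genes, 11 were tested and none passed, with a median log2 fold change of 0.02. Sox2, a partner of OCT4, was at 0.16 (edgeR adjusted p 0.131). Of 11 genes of FGF receptors and ERK readout, 10 were tested, 3 rose and 1 fell. Spry4, a feedback inhibitor of the pathway, rose by 0.73 (SE 0.167, edgeR adjusted p 0.024), Dusp6, an ERK phosphatase, by 0.36 (0.0318) and Etv4 by 0.25 (0.0253). The immediate early gene Egr1 fell by 0.68 (SE 0.0761, edgeR adjusted p 0.00039). None of these 4 passed without the set term (edgeR adjusted p 0.33 to 0.799).

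Among 22 other formative and primed genes, 21 were tested, 1 rose and 3 fell, with a median of -0.04. Utf1, a chromatin factor gene, rose by 0.47 (SE 0.102, edgeR adjusted p 0.0223). T (brachyury, a primitive streak factor) fell by 0.91 (SE 0.187, edgeR adjusted p 0.0173), Lef1, a transcription factor of the Wnt pathway, by 0.44 (0.0058) and Grhl2, an epithelial transcription factor, by 0.35 (0.0374). Of 16 naive genes, all tested, none rose and 2 fell: Dppa3, a maternal and germ cell gene, by 0.60 (edgeR adjusted p 0.00182) and the homeobox gene Gbx2 by 0.50 (0.00131). None of these 6 genes passed without the set term (edgeR adjusted p 0.112 to 0.504).

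The separate comparisons named further genes of these lists. The siLuc comparison with untreated cells had 2 of the FGF-ERK list higher (Spry4 and Dusp6) and 1 lower (Egr1). The RNA-binding gene Lin28a rose there by 0.22 (SE 0.0526, edgeR adjusted p 0.0343). In siStag3 against untreated cells Etv4 (0.34, edgeR adjusted p 0.0145) and Utf1 (0.51, 0.0428) rose, and Egr1, Lef1 and T fell. Gbx2 fell in both comparisons, by 0.47 (edgeR adjusted p 0.00764) and 0.53 (0.00363), and Dppa3 fell in siStag3 by 0.86 (edgeR adjusted p 0.000781). In siLuc Utf1, Etv4, T, Lef1 and Dppa3 differed in the same direction but did not pass (edgeR adjusted p 0.0544 to 0.149). Their log2 fold changes there were 0.44, 0.16, -0.77, -0.24 and -0.34. Without the set term none of the calls named for these 2 comparisons passed (edgeR adjusted p 0.0604 to 0.943). With the GC correction the Egr1 values were -0.56 and -0.58 in the 2 comparisons, past the threshold in neither (edgeR adjusted p 0.0696 and 0.0622), and -0.57 for the mean of both groups, which passed (0.0329). In siStag3 against siLuc no gene of the 4 lists passed, and the genes of smallest p in their own lists were Dppa3 (-0.52, edgeR adjusted p 0.168), Lin28a (-0.23, 0.228), Fgfr2 (-0.34, 0.394) and Fgf4 (0.11, 0.635). After the GC correction Lin28a (-0.23, edgeR adjusted p 0.0144) and Lef1 (-0.41, 0.0319) passed there.

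**Figure D4:**
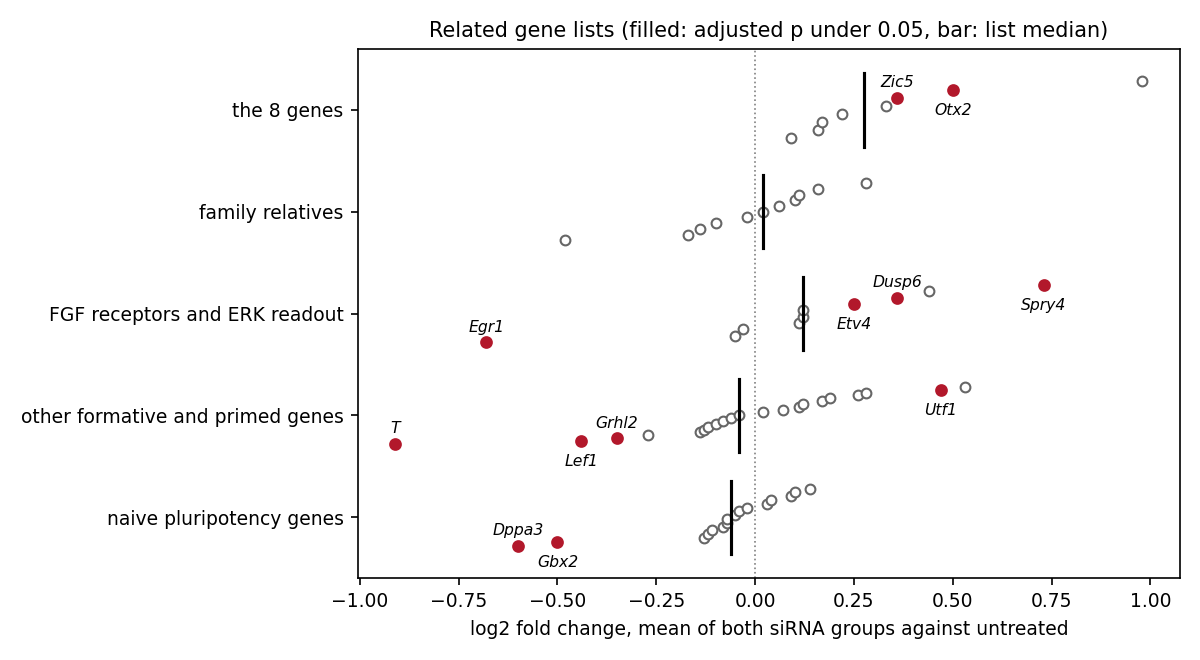
Log2 fold change of the mean of both siRNA groups against untreated cells for every tested gene of 5 lists; filled points have an adjusted p under 0.05 and bars are list medians. The 8 genes have a median of 0.28 and all lie above 0, and the medians of the other lists run from -0.06 to 0.12.

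Several of the 8 genes are also expressed in neural cells, so neural markers were read beside them. Of 10 such markers 9 were listed, and their sum was 132 to 151 CPM in untreated cells, 142 to 150 in siLuc and 150 to 170 in siStag3. Tubb3 and Nes made up most of it, with means of 112 and 28.3 CPM. Some neural markers were higher on average in the siRNA groups: Pax6 had group means of 2.39, 3.59 and 3.11 CPM in untreated, siLuc and siStag3, Neurod1 1.47, 2.34 and 2.02 CPM, and Nes 24.9, 29.8 and 30.3 CPM. Sox1 had 0.918, 0.986 and 0.991 CPM, and the mean of Dcx over all libraries, 0.0378 CPM, was under the floor of 3 counts. Markers of the primitive streak, mesoderm and definitive endoderm summed to 10.5 to 11.8 CPM in untreated cells, 8.27 to 10.4 in siLuc and 7.78 to 8.99 in siStag3. These markers did not all go the same way. T had group means of 4.81, 2.86 and 2.34 CPM in that order, and Gsc 3, 2.28 and 2.67 CPM. Eomes went the other way, with 2.5, 3.32 and 2.66 CPM. The highest of the other listed markers was Mixl1, at a mean of 0.401 CPM over all libraries. The part of these markers in the Otx2 and Zic5 differences was not tested.

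The genes whose profile over the 9 libraries lay closest to that of a member were found among 9057 genes whose average log2 CPM was 3 or more, by the root mean square difference of centred log2 CPM. For Otx2, whose SD was 0.592 log2 units, they were Oxct1 (0.179) and Arsa (0.187), both also higher in Set 3 (log2 fold changes 0.87 and 1.02). For Zic5 they were Naf1 and Gclm (both 0.0749), for Zic2 Zmynd11 (0.0629) and Ssbp3 (0.068), and for Sox4 Fzd7 (0.0801) and Ssbp3 (0.0836). The closest genes to Sox3, Sox11, Pou3f1 and Fgf5 were Lamb1, Vamp4, Uchl1 and Enox1, at 0.0842, 0.13, 0.215 and 0.331. These are descriptions over 9 libraries that share group, set and depth.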

How the data were processed

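RNA sequencing counts of 9 libraries were used. The authors deposited raw counts per gene, whole numbers with no normalization, and the submitters' processing notes name FastQC, Salmon, DESeq2 and the build GRCm39 without roles. The annotation release, strand setting and low-count filter are not given in the sources used here, and the lowest sum listed is 9 counts per gene. Columns were matched to groups by name; they carry no replicate numbers.

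Members, lists and design were chosen with earlier results of these data known. Genes were named by fixed lists: the 8 genes always, and from each list the genes past the threshold, or the one of smallest p; some of these are not reported here. The quasi-likelihood test of edgeR 4.0.16 (R 4.3.3, TMM, filterByExpr, robust fit) was run on all 9 libraries with a term for the set, and p-values were adjusted by Benjamini-Hochberg over 14246 genes (two-sided, threshold 0.05). SEs are the absolute log2 fold change over the square root of F. The biological coefficient of variation was 7.62% with the set and 14.6% without. Alternatives were no set term, a block of set and experiment added after seeing the data, a GC correction (20 bins, GENCODE transcripts), DESeq2 1.42.0 size factors and Wald test, total count only, no filter, Set 1 alone and leaving out each library. Transcript length is that of the longest coding transcript in GENCODE M21 (GRCm38). On simulated data for siStag3 against untreated cells (14246 genes), the test recovered 86% of genes changed by 1 and 63% of those changed by 0.5 on the log2 scale, with 11 false calls among 160. Without the set term it recovered 63% and 12%, with 0 false calls among 75. The counts were simulated from the fitted model with its additive set effect and its spread, so these rates may be favourable.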

Additional observations from a re-analysis of the deposited data

How the results depend on the processing

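Calls depended on the set term and on single libraries, with 2 libraries of Set 1 and 1 of Set 3 per group. Of 243 values of the 8 genes under 8 alternatives (leaving out libraries apart), 227 kept their direction and side of the threshold, and 13 more from DESeq2 had no adjusted p. Only values of Otx2 and Zic5 were past the threshold in the main fit, and none of them stayed past it without the set term. The share kept therefore mostly reflects values that were never past the threshold. The replicate numbers of the labels do not appear in the column names, so a replicate block was built from set and experiment, chosen after seeing the data: experiments 1 and 3 of Set 1 and the Set 3 libraries, whose experiments differ. With this block 4, 317, 268 and 542 genes passed in the order of comparisons given next, and the members called were the same. The differences between experiments 1 and 3 in the 3 groups correlated at -0.04 to -0.03 over 14246 genes, which are not independent replicates. Whether libraries of the same experiment number share a culture or a day cannot be told from these values, since the labels do not explain the number. The cause of each change was not tested. Counts are given for siStag3 against siLuc, siLuc against untreated, siStag3 against untreated and the mean of both siRNA groups, in that order. Over all genes the fit with the set gave 4, 598, 361 and 861. Without the set it gave 0 (no gene in edgeR), 1, 2 and 10. With the GC correction it gave 61, 998, 965 and 1373. The DESeq2 Wald test gave 22, 1296, 397 and 1199, and Set 1 alone 4, 298, 949 and 1311. Leaving out 1 library gave 0 to 4, 111 to 387, 78 to 1591 and 134 to 3303. Without the untreated library of Set 3 they were 111, 90 and 134 in the last 3 comparisons, and without the siStag3 library of Set 3 they were 1591 and 3303 in the last 2. Without the siStag3 library of Set 1, experiment 1, they were 0, 78 and 285 in the comparisons with siStag3. Scaling by total count only left the same members called and moved the share of higher genes among all calls from 39.3% to 21.2%, from 42.4% to 28.1% and from 38.1% to 19.4% in the last 3 comparisons; the median of all genes was then -0.05.

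Of the 8 genes, 0, 2, 1 and 2 passed with the set and 0 in each comparison without it. In siLuc against untreated 0 passed in Set 1 alone. In siStag3 against untreated 2 passed with the GC correction, with DESeq2 and in Set 1 alone. Leaving out 1 library gave 0 to 2 in each comparison against untreated cells and 0 in siStag3 against siLuc. Among values never past the threshold, Sox3 in siStag3 against untreated turned to 0.06 with the GC correction, and in Set 1 alone siStag3 against siLuc turned to 0.03 for Zic5, 0.18 for Fgf5 and 0.24 for Sox11. When 1 library was left out, values changed sign in siStag3 against siLuc for Otx2 (-0.05 to 0.09), Zic2 (-0.12 to 0.01), Zic5 (-0.18 to 0.04), Fgf5 (-0.42 to 0.28), Sox4 (-0.03 to 0.09) and Sox11 (-0.36 to 0.20). They did so in siStag3 against untreated for Pou3f1 (-0.02 to 0.51), Sox3 (-0.24 to 0.12) and Sox11 (-0.16 to 0.41), in siLuc against untreated for Sox11 (-0.02 to 0.30), and in the mean of both groups for Sox3 (-0.02 to 0.19).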
